A study of Mus musculus with 8 samples.

Results

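The nuclear genes for the structural subunits of the mitochondrial respiratory chain and of ATP synthase were followed in mouse embryonic stem cells in which transcription had been blocked. Probes were taken by gene symbol: those starting with Nduf, Uqcr or Atp5, those starting with Cox4 to Cox8, and Sdha, Sdhb, Sdhc and Sdhd. The rule found 93 symbols, measured by 124 probes, among the 20972 symbols on the array. Of these, 8 are assembly factors named Ndufaf, which were set apart, and 85 are structural members. They comprise 36 genes of complex I, 4 of complex II, 8 of complex III, 20 of complex IV (with Ndufa4, a subunit of that complex, and its paralogue Ndufa4l2) and 17 of complex V. A total of 83 structural members passed the filter on low signal and were tested. Cox6a2 and Cox8b, the muscle-type forms of 2 complex IV subunits, did not pass. Cox6a2 was above background on 1 of 3 4OHT arrays, 0 of 2 vehicle arrays and 2 of 3 untreated arrays, and Cox8b on 0, 0 and 1 of them.

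The study measured mRNA on 8 single-colour arrays. All cultures were grown with the self-renewal cytokine LIF and 250 nM of the FGF receptor inhibitor PD173074. In the 4OHT group (3 arrays) cells received 5 µM actinomycin D, which blocks transcription, and 30 min later 250 nM 4-hydroxytamoxifen (4OHT) for 4 h. In the vehicle group (2 arrays) they received the same actinomycin D and then ethanol for 4 h. The untreated group (3 arrays) stands for 0 h, and although the titles of these samples also carry an abbreviation of actinomycin D, their treatment label says that they had none. What 4OHT acts on, and the genotype of the line, are not given in the sources used here. The design text gives 3 biological replicates per condition, of which 2 vehicle arrays are used here. P-values measure the spread between these arrays. In such bulk RNA, fewer cells of a type and less RNA per cell cannot be told apart.

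Electrons from NADH enter the chain at complex I and those from succinate at complex II, which is also an enzyme of the citric acid cycle. They pass through ubiquinone to complex III, through cytochrome c to complex IV and on to oxygen, and the proton gradient that this builds drives ATP synthase, complex V. A few subunits of complexes I, III, IV and V are encoded in mitochondrial DNA, and the rest are made in the cytosol from the nuclear mRNAs described here. Assembly factors help to build the complexes without being part of the finished enzyme. Embryonic stem cells have immature mitochondria and draw much of their ATP from glycolysis. None of the 13 mitochondrially encoded subunit genes was matched on the array, so all values concern nuclear genes.

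Promoter sequence is shown first, as background to some factors known to bind such promoters, whose mRNAs are described below. Whether the motifs go with the differences between groups was not tested. RefSeq windows of 300 bases (250 before and 50 after the annotated start, assembly GRCm38.p6) were found for 69 of the 85 structural members. The NRF1 motif, GCGC then any base then TGCGC, was present on either strand in 24.6% of these, against 5.19% of the 27025 genes with a window and 9.88% of the tested genes with one. YY1's motif AAGATGGC was in 14.5% of members, against 3.19% of all genes and 4.65% of tested genes. The ETS-type motif ACTTCCG, of the kind bound by GABP, was in 15.9% of members, against 7.2% of all genes and 12.9% of tested genes. TATAAA was in 11.6% of members, against 15.7% of all genes and 10.5% of tested genes. At least 1 of the first 3 motifs occurred in 34 of the 69 members, and no 2 matches of different motifs overlapped. Among the 47 assembly factors with a window, the NRF1 motif was in 12.8%, the ETS motif in 29.8% and the YY1 motif in 14.9%.
The next 3 windows are printed 5′ to 3′ on the gene's strand, with motif matches in capitals. Atp5h (peripheral stalk of ATP synthase) holds an NRF1 and an ETS match and lies at chr11:115419870-115420169, minus strand. Ndufs6 (a complex I accessory subunit) holds an NRF1 and a YY1 match and lies at chr13:73328433-73328732, minus strand. Ndufs7 (a complex I core subunit, which stood apart from the other members below) holds TATAAA and a YY1 match and lies at chr10:80249199-80249498, plus strand.
Atp5h: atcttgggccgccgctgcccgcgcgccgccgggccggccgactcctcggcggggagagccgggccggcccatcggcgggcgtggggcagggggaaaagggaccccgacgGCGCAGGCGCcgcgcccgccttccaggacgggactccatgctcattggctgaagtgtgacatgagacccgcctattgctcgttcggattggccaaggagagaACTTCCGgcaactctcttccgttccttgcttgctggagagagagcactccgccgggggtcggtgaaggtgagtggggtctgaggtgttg
Ndufs6: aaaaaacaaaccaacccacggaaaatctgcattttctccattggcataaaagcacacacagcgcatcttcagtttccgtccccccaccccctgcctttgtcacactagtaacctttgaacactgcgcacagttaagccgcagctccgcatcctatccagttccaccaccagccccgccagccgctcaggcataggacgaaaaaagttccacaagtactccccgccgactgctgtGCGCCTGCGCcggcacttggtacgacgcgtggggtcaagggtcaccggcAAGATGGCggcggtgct
Ndufs7: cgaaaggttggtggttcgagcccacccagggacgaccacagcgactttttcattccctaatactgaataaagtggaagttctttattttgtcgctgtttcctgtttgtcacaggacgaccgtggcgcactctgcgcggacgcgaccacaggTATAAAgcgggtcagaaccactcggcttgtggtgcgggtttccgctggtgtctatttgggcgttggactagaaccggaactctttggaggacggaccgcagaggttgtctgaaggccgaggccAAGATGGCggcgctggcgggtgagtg
A match is a run of letters in the window and was not tested as a binding site.

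Vehicle against untreated asks which mRNAs remained after transcription had been blocked. Levels are log2 signals from which the 75th percentile of their array was subtracted, so a difference is relative to the bulk of the mRNAs on the same array, and that bulk was itself lower. That percentile came to 209, 180 and 182 for 4OHT, 166 and 205 for vehicle, and 333, 457 and 405 for untreated (linear processed signal). On this relative scale 81 of 83 structural members were higher in vehicle and 0 were lower (limma, adjusted p under 0.05 over 28493 features). Their median log2 difference was 0.99, with quartiles of 0.93 and 1.13 and a range of 0.01 to 1.47. Among all features tested, 57.4% were called, 41.5% higher and 15.9% lower, the median was 0.40 and the quartiles were -0.24 and 0.76. The median member stood at the 89.0th percentile of all features. For 81 members every vehicle array lay above every untreated array. How many of all features did so was not counted, so this number has no background beside it.

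The direction depends on the scale. Relative to spike-in control probes every difference between vehicle and untreated was lower by the same constant, which put the members' median at -0.28 and that of all features at -0.88, with 0 members called higher and 6 lower. These probes are meant to detect RNA added before labelling, a step that the labels do not describe. Under quantile normalization, which forces every array to the same distribution of signal, 32 members were called higher and 1 lower. There the members' median was 0.22 and exceeded the median of all features by 0.02, against 0.60 on the 75th-percentile scale and 0.23 with normexp background correction. The distance of the subunit genes above the bulk was therefore not seen under quantile normalization. Of all features called, 72.3% were higher on the 75th-percentile scale, 84.8% with normexp, 60.2% under quantile normalization and 0.173% relative to the spike-ins. The structural members lay above the assembly factors on the 75th-percentile scale, with medians of 0.99 and 0.33. They also did so with normexp (0.76 and 0.22) and under quantile normalization (0.22 and 0.06). Relative to the spike-ins the medians were -0.28 and -0.95. A constant shift cannot change the order of the sets, so the spike-in scale does not test it.

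**Figure D1:**
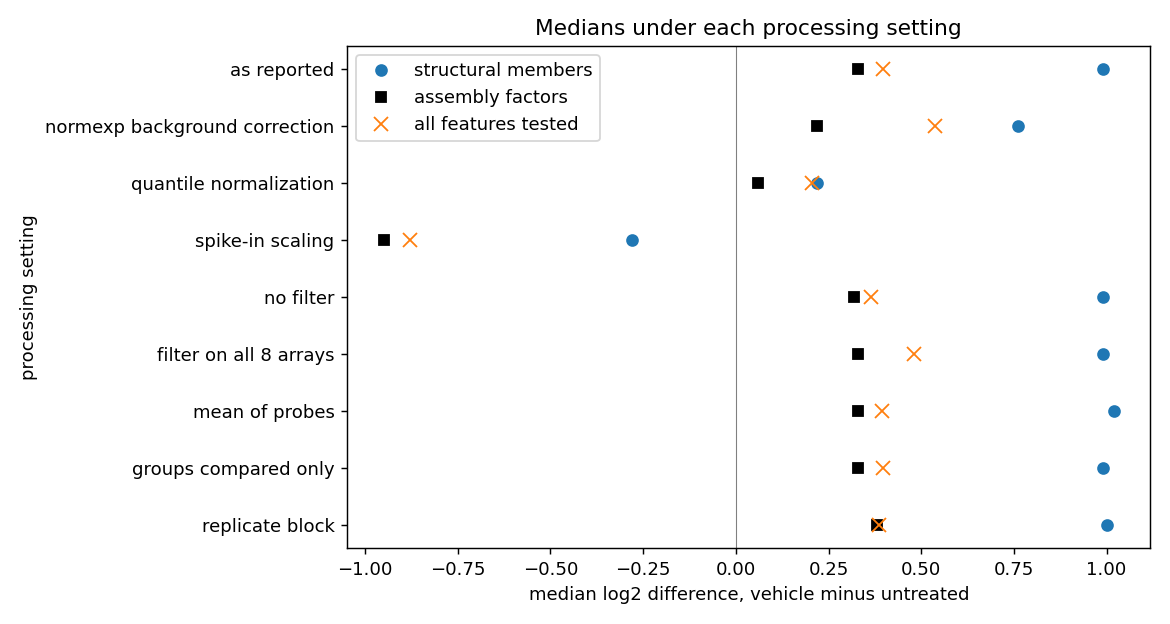
Median log2 difference, vehicle minus untreated (x axis), under each processing setting (y axis) for the structural members (circles), the assembly factors (squares) and all features tested (crosses). The members' median lies at 0.99 as reported, at 0.22 beside that of all features under quantile normalization, and at -0.28 relative to the spike-ins.

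Complex by complex the subunit genes moved by similar amounts. Complex V had the highest median, 1.11, with 17 of 17 members called higher, and complex III followed at 1.07 with 8 of 8. The median was 1.05 in complex IV (17 of 18), 0.97 in complex II (4 of 4) and 0.96 in complex I (35 of 36). Within complex I the quartiles were 0.87 and 1.03, so the complexes overlapped, and differences between them were not tested. Their order depends on the scaling: with normexp complex III (0.88) lay above V (0.83), and under quantile normalization the medians were 0.31 in IV, 0.30 in II, 0.23 in I, 0.20 in V and 0.16 in III. The median shift of the members from the untreated mean was 0.93, 0.98 and 1.02 in 4OHT, 1.01 in each vehicle culture, and 0.10, -0.02 and -0.07 in untreated. All 5 arrays treated with actinomycin D thus stood apart from the 3 untreated ones.

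**Figure D2:**
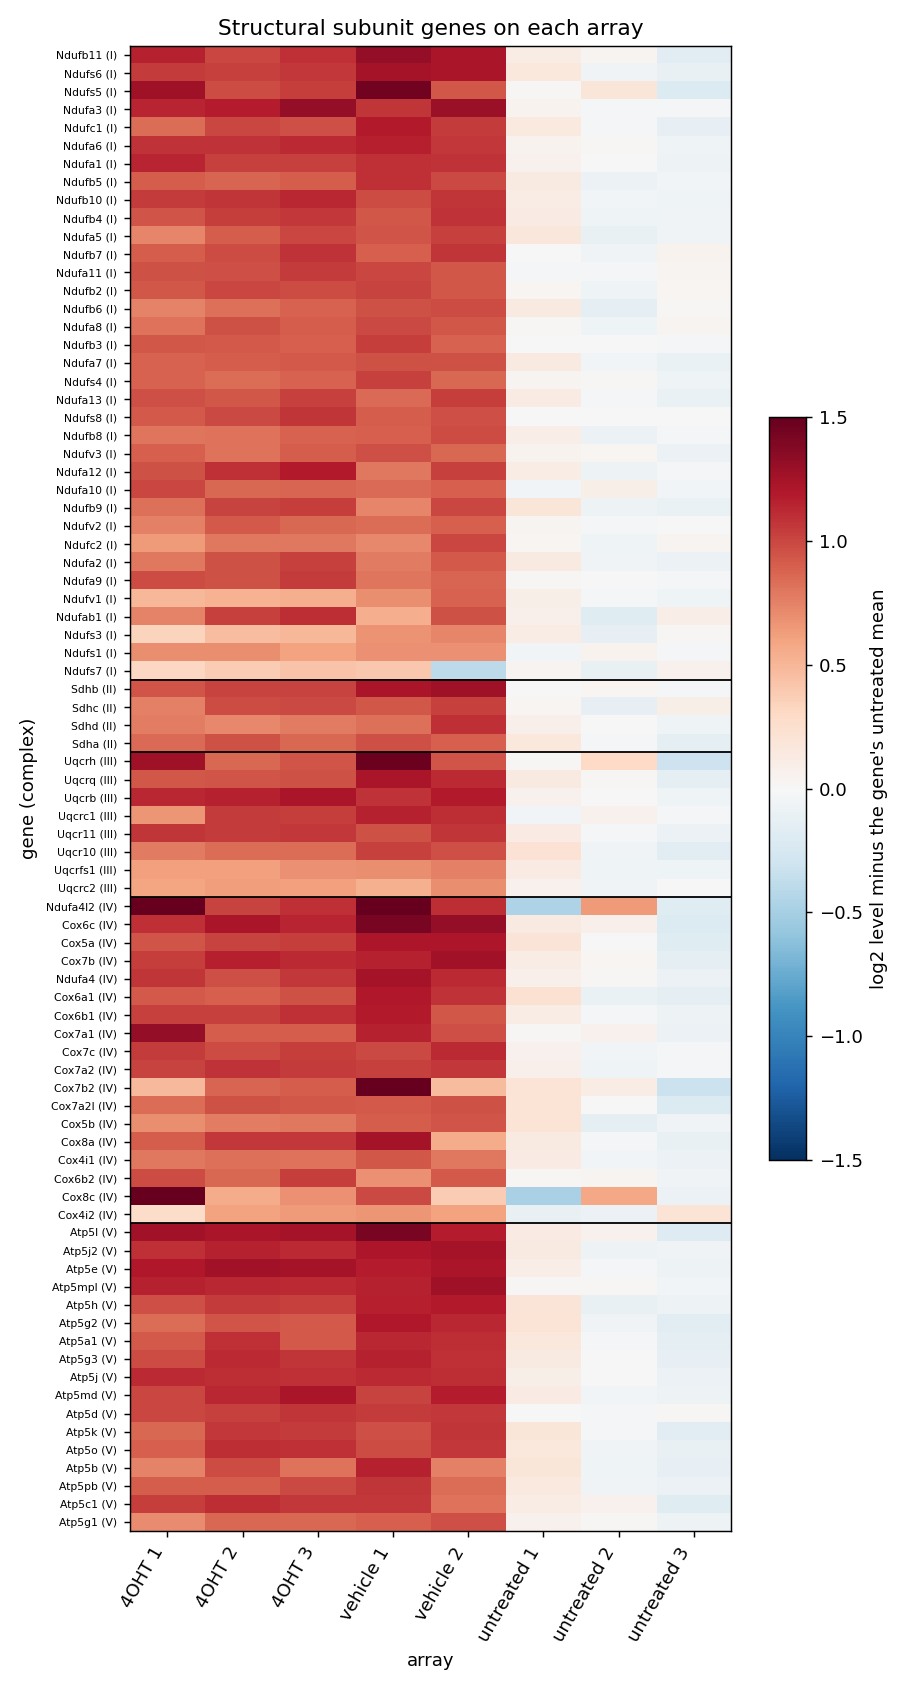
The tested structural members that are reported by name (vertical axis, grouped by complex) on each of the 8 arrays (horizontal axis), each coloured by its log2 level minus its own untreated mean. The 4OHT and vehicle columns are red for nearly every gene, and the pale or blue cell for Ndufs7 in vehicle replicate 2 is the exception in complex I.

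The catalytic core of complex I holds the flavin, the iron-sulfur clusters and the ubiquinone site. Its 7 nuclear genes had a median of 0.79 and a range of 0.01 to 1.31, and 6 were called higher. The top of that range was also the highest value of complex I, so core and accessory genes overlapped. The 29 accessory subunits, which surround the core, had a median of 0.97, a range of 0.75 to 1.27, and 29 were called higher. Ndufs1, the largest iron-sulfur subunit, measured 6.17 on both vehicle arrays, against 5.45, 5.54 and 5.47 on the untreated arrays. Its difference of 0.69 ± 0.09 (SE from the fit; limma adjusted p = 0.00065) was the second lowest of complex I, and the groups did not overlap. Ndufs3, Ndufv1, Ndufv2 and Ndufs8, also of the core, lay above it at 0.70, 0.79, 0.87 and 0.94. Among accessory subunits, Ndufb11 had the highest difference, 1.27 ± 0.11, while a second kept probe for it gave 1.07.

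Ndufs7, which holds the iron-sulfur cluster next to ubiquinone, was the only complex I member that was not called. It measured 6.22 and 5.42 on the vehicle arrays, against 5.86, 5.70 and 5.88 on the untreated arrays, a difference of 0.01 ± 0.22 (limma adjusted p = 0.99). The vehicle arrays lay on either side of the untreated ones. Vehicle replicate 2 was the low one, and without it the difference was 0.41 (adjusted p = 0.046 in limma). Without vehicle replicate 1 it was -0.40 (adjusted p = 0.047 in limma), so the sign rests on which vehicle array is used. On the 4OHT arrays Ndufs7 measured 6.12, 6.19 and 6.24, above every untreated array, with a difference of 0.37 ± 0.20 (adjusted p = 0.15 in limma). Its probe was the sole one kept for the gene, and a fault of a single spot was not tested.

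All 4 genes of complex II, succinate dehydrogenase, were higher in vehicle. Sdhb, its iron-sulfur subunit, measured 7.57 and 7.62 on the vehicle arrays, against 6.34, 6.37 and 6.32 on the untreated arrays (1.25 ± 0.08, limma adjusted p = 8.9e-05). Its replicates lay closer together than the gap between groups by a wide margin. The flavoprotein gene Sdha differed by 0.93 ± 0.11, and the membrane anchors Sdhc and Sdhd by 0.98 ± 0.12 and 0.96 ± 0.11. A second kept probe for Sdhc gave 0.61. Under quantile normalization the calls of Sdha (0.25, limma adjusted p = 0.068) and Sdhd (0.23, limma adjusted p = 0.093) were lost.

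Within complex III the large core proteins and the Rieske protein lay below the small subunits, with medians of 0.73 over 3 genes and 1.14 over 5. Uqcrc2, a core protein, measured 6.38 and 6.55 in vehicle, against 5.91, 5.80 and 5.84 in untreated (0.62 ± 0.09, limma adjusted p = 0.0015), the lowest difference of the complex. Uqcrfs1, the Rieske iron-sulfur protein, differed by 0.73 ± 0.10. The other core protein, Uqcrc1, differed by 1.13 ± 0.14 and so lay among the small subunits. Uqcrh, the hinge protein at the cytochrome c site, measured 8.64 and 8.12 in vehicle, against 7.19, 7.47 and 6.86 in untreated (1.20 ± 0.24, limma adjusted p = 0.0045). Uqcrq, a small subunit, differed by 1.17 ± 0.11.

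Complex IV, cytochrome c oxidase, holds several subunits with tissue-restricted forms, and such forms gave its highest and its lowest value. Cox6c, a small subunit with a single form, measured 8.34 and 8.24 in vehicle, against 7.05, 6.99 and 6.71 in untreated (1.37 ± 0.13, limma adjusted p = 0.00025). Ndufa4l2, known as a hypoxia-induced gene, measured 3.31 and 2.59 in vehicle, against 1.02, 2.12 and 1.30 in untreated. Its difference of 1.47 ± 0.41 was the highest of all members (limma adjusted p = 0.019), but untreated replicate 2 stood well above its fellows, and the call was lost without vehicle replicate 1 (1.11, adjusted p = 0.11), without untreated replicate 1 (1.24, adjusted p = 0.053) or without untreated replicate 3 (1.38, adjusted p = 0.053). Cox4i2, the lung and hypoxia form of subunit 4, differed by 0.63 ± 0.15 (limma adjusted p = 0.011), and without vehicle replicate 1 by 0.60 (adjusted p = 0.055). Cox8c, described in testis, measured -3.36 and -3.97 in vehicle, against -4.83, -3.77 and -4.44 in untreated, and its groups overlapped (0.68 ± 0.42, limma adjusted p = 0.20).

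The 6 tissue-restricted isoforms that were tested had a median of 0.91 with 5 called higher, and the 7 ubiquitous partners a median of 1.06 with 7 called higher. Cox4i1, Cox6a1, Cox6b1, Cox7a2, Cox7b, Cox8a and Ndufa4 are the ubiquitous forms, and their differences were 0.86, 1.14, 1.06, 1.04, 1.20, 0.90 and 1.18. Cox6b2 and Cox7a1, known from testis and from muscle, differed by 0.80 ± 0.11 and 1.06 ± 0.15, and Cox7a2l, a relative that acts in supercomplexes, by 0.94 ± 0.13. Cox7b2, a testis form, measured -2.46 and -3.55 in vehicle, against -3.82, -3.91 and -4.34 in untreated (1.02 ± 0.33, limma adjusted p = 0.034). Its call was lost when any of the 3 untreated arrays (adjusted p of 0.052, 0.054 and 0.092), vehicle replicate 1 (0.48, adjusted p = 0.19) or 4OHT replicate 2 (adjusted p = 0.05 after rounding) was left out. The cells carried all 10 embryonic stem cell markers above background on every array. Of the muscle markers 5 of 7, of the testis markers 3 of 5 and of the fibroblast feeder markers 3 of 6 were above background on every array of each group, while Ckm, Actc1, Acrv1, Lum and Postn were above it on none. The summed linear level of the muscle markers relative to the 75th percentile was 3.18 to 4.64 in 4OHT, 3.00 to 4.83 in vehicle and 1.67 to 2.59 in untreated, and that of the testis markers 0.735 to 0.892, 1.01 to 1.17 and 0.523 to 0.795. That of the embryonic stem cell markers was 1088 to 1253 in 4OHT, 1243 to 1312 in vehicle and 913 to 1047 in untreated. Whether cells of the other types were present was not tested, nor was their part in the isoform values. Without the tissue-restricted forms the members' median was 0.99 over 77 genes.

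ATP synthase genes lay in a narrow range, 0.93 to 1.30 over 17 genes. Its membrane subunits had a median of 1.21, the c ring that turns in the membrane 1.12, the peripheral stalk 1.07 and the catalytic F1 head 1.05. Atp5l, the g subunit, measured 8.28 and 8.04 in vehicle, against 6.98, 6.93 and 6.67 in untreated, a difference of 1.30 ± 0.13 (limma adjusted p = 0.00031). Atp5j2, the f subunit, differed by 1.23 ± 0.10 and Atp5e, the epsilon subunit of F1, by 1.21 ± 0.09. At the low end, Atp5c1, the gamma subunit that forms the rotor shaft, measured 7.95 and 7.70 in vehicle, against 7.0, 6.95 and 6.71 in untreated (0.94 ± 0.13, limma adjusted p = 0.0009). A second kept probe for Atp5c1 gave 1.19, so its place at the low end depends on the probe. The 3 genes for the same c-ring protein, Atp5g1, Atp5g2 and Atp5g3, differed by 0.93 ± 0.10, 1.16 ± 0.13 and 1.12 ± 0.11.

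**Figure D3:**
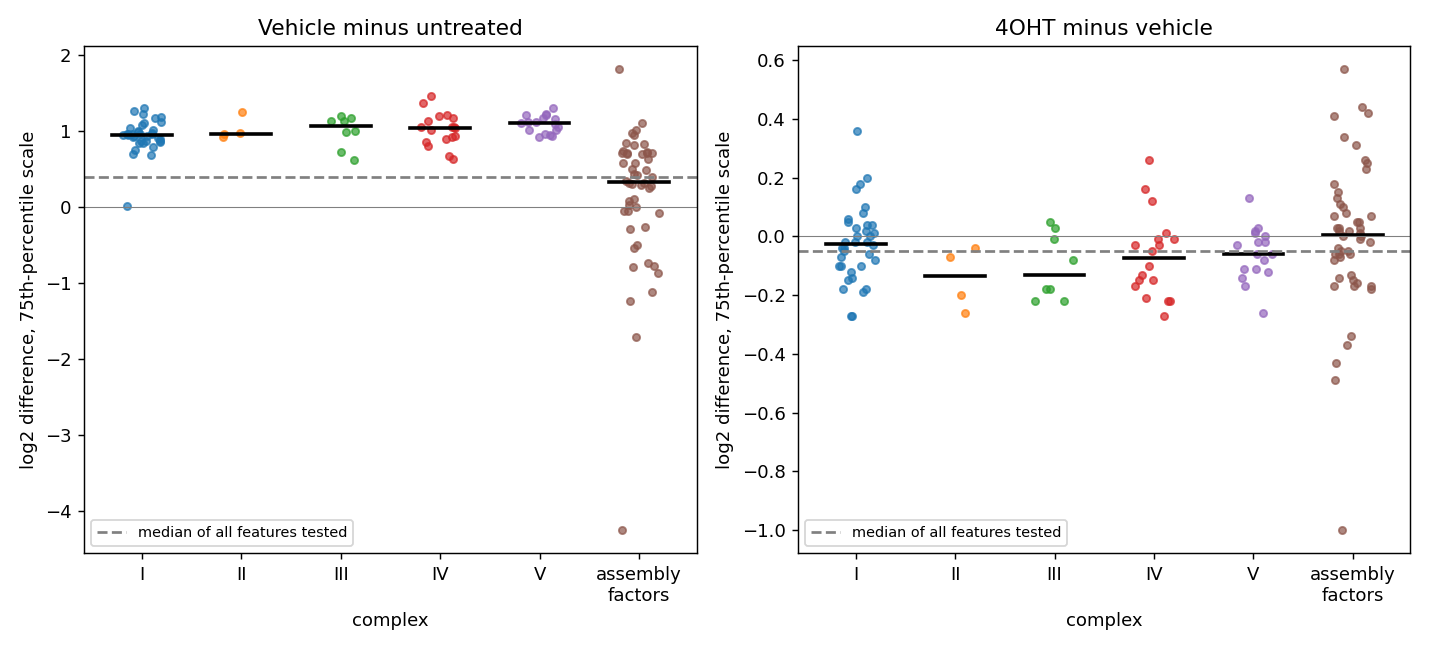
Log2 differences of single genes (points; bars are medians) for complexes I to V and the assembly factors, with vehicle minus untreated in the left panel and 4OHT minus vehicle in the right panel. On the left the subunit genes lie in a band around 1 above the dashed median of all features (0.40), whereas the assembly factors spread from -4.25 to 1.82; on the right the subunit genes lie between -0.27 and 0.36.

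Assembly factors did not share this band, and their signal was lower. On the untreated arrays their median level was 2.36, 2.32 and 2.4, against 6.12, 6.12 and 5.93 for the structural members. The part of signal level in the difference between the sets was not tested. The list holds 53 genes, of which 51 were on the array and 50 were tested, and it includes the 8 Ndufaf genes. In vehicle 28 of the 50 were called higher and 9 lower, the median was 0.33 and the range ran from -4.25 to 1.82. Among all features the median was 0.40, with 41.5% called higher and 15.9% lower, so the factors had more calls higher than the bulk and a similar share lower. Of the structural members 0 of 83 were lower. Of the Ndufaf genes 5 of 8 were higher and 1 was lower, with a median of 0.61.

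Sco2, which delivers copper to complex IV, measured -2.44 and -2.23 on the vehicle arrays, against 2.03, 1.78 and 1.91 on the untreated arrays. Its difference of -4.25 ± 0.12 (limma adjusted p = 4.4e-06) was the lowest of the list. The other 8 factors called lower, named after their values were seen, act in all of the complexes. They were the complex I factors Tmem186 (-1.71) and Ndufaf4 (-1.11), the complex II factor Sdhaf3 (-0.77), the complex III factor Ttc19 (-0.79), the complex IV factors Taco1 (-1.24), Coa4 (-0.74) and Coa6 (-0.50), and the ATP synthase factor Tmem70 (-0.87). Taco1 is known to promote translation of a mitochondrially encoded complex IV subunit. At the other end stood Timmdc1, a membrane factor of complex I, with 3.96 and 4.28 in vehicle, against 2.38, 2.21 and 2.32 in untreated (1.82 ± 0.15, limma adjusted p = 0.0002). Cox17, a copper chaperone upstream of Sco2, differed by 1.02 ± 0.15, within the range of the subunits. Its signal was low, though above background on every array, and 1 of its 2 probes was kept. It measured -2.99 and -3.23 in vehicle, against -4.23, -4.23 and -3.94 in untreated.

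**Figure D4:**
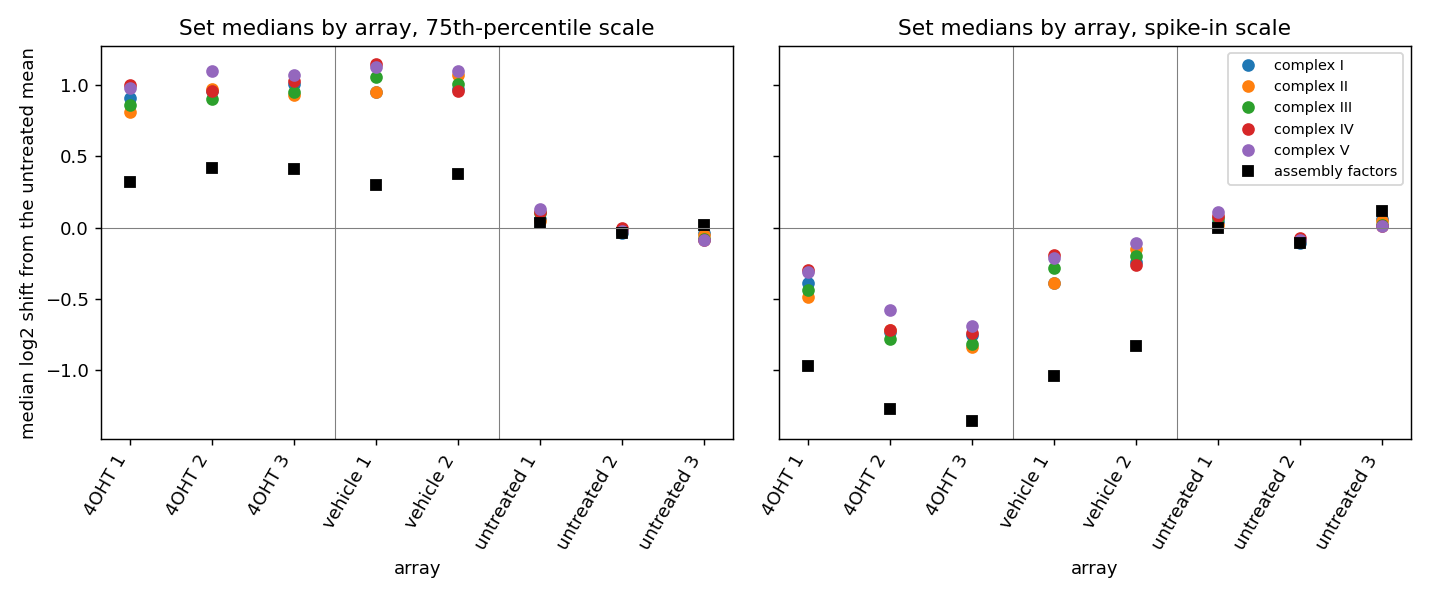
Median log2 shift from the untreated mean (y axis) of complexes I to V (circles) and the assembly factors (squares) on each array (x axis), on the 75th-percentile scale (left) and relative to spike-in probes (right). On every actinomycin D array the 5 complexes lie above the assembly factors. The spike-in scale moves all sets of an array by the same constant, so it keeps their order by construction. The sign of the shift changes between the scales.

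Genes around the chain are given by role. In vehicle against untreated 41.5% of all features were called higher and 15.9% lower, with a median of 0.40. Differences between the lists were not tested. Of the 16 citric acid cycle genes, which supply NADH and succinate, 15 were higher and 0 lower, with a median of 0.74 and the highest value for Mdh2, malate dehydrogenase (1.07 ± 0.13). Dlat, a subunit of pyruvate dehydrogenase, had the lowest value, -0.04 ± 0.09. Of the 12 tested genes for cytochromes c and c1 and for ubiquinone synthesis, 7 were higher and 0 lower, with a median of 0.70. Cycs, the soluble cytochrome c, differed by 0.92 ± 0.13 and Cyc1, the cytochrome c1 subunit of complex III, by 0.73 ± 0.12, while Pdss2, of ubiquinone synthesis, differed by -0.15 ± 0.13 (limma adjusted p = 0.35).

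The 20 tested regulators of respiratory genes were divided, 7 higher and 6 lower, with a median of -0.03, beside 41.5% higher and 15.9% lower among all features. Nrf1, whose motif is shown above, measured -0.59 and -0.93 in vehicle, against 1.72, 1.82 and 1.56 in untreated (-2.46 ± 0.15, limma adjusted p = 5.8e-05). Gabpb1, a subunit of the ETS factor GABP, measured 1.88 and 1.73 in vehicle, against 2.78, 2.86 and 2.64 in untreated (-0.96 ± 0.13, limma adjusted p = 0.00077). The coactivator gene Ppargc1b differed by -1.95 ± 0.28, but by 0.17 with normexp background correction, and it was above background on 1 of 2 vehicle arrays. Myc had the lowest value, -4.72 ± 0.13. Tfam, which packages and transcribes mitochondrial DNA, differed by -0.04 ± 0.09 (limma adjusted p = 0.72). Highest was Slirp, at 0.98 ± 0.11, and its partner Lrpprc differed by 0.84 ± 0.11 (both proteins stabilise mitochondrial mRNAs). The other GABP subunits moved the opposite way to Gabpb1. Gabpa, the subunit that binds the ETS motif, measured 2.60 and 2.81 in vehicle, against 2.35, 2.29 and 2.27 in untreated (0.40 ± 0.13, limma adjusted p = 0.035), a call that was lost without any 1 of the 3 untreated arrays, without vehicle replicate 2 (0.30, adjusted p = 0.18) or without 4OHT replicate 2. Gabpb2, an alternative partner of Gabpa, measured -0.24 and -0.40 in vehicle, against -0.83, -0.93 and -0.93 in untreated (0.57 ± 0.10, limma adjusted p = 0.0025). The call of Gabpa was also lost with normexp (0.28, limma adjusted p = 0.052) and under quantile normalization (0.19, limma adjusted p = 0.26). It was lost as well with no filter (limma adjusted p = 0.083) and with the replicate block (limma adjusted p = 0.1). Relative to the spike-ins Gabpa and Gabpb2 were at -0.87 and -0.70.

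4OHT against vehicle compares 2 groups that both received actinomycin D. None of the 83 structural members was called (0 higher and 0 lower, limma), and 0 were higher and 3 lower at an unadjusted p under 0.05. Normexp background correction called 1 of them, Ndufs3 (-0.45, adjusted p = 0.049). Over all features 3.5% were called, 0.923% higher and 2.58% lower, and 0 of 83 is near that background. The members' median was -0.05, equal to that of all features, and their range was -0.27 to 0.36. With a median standard error of 0.11, small differences could not be seen, and the missing calls do not show that 4OHT had no effect. Slide and group cannot be told apart in this comparison, because the 4OHT arrays were alone on their slide, and the same holds for 4OHT against untreated.

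The values at the ends of the range were small. Ndufs7, with 6.12, 6.19 and 6.24 in 4OHT, against 6.22 and 5.42 in vehicle, gave the highest difference (0.36 ± 0.22, limma adjusted p = 0.43), and its groups overlapped. Ndufv1, the subunit that binds NADH and flavin, measured 7.08, 7.10 and 7.13 in 4OHT, against 7.28 and 7.47 in vehicle (-0.27 ± 0.10, limma adjusted p = 0.20). Ndufs3 measured 5.88, 6.01 and 6.04 in 4OHT, against 6.22 and 6.27 in vehicle (-0.27 ± 0.11, limma adjusted p = 0.24). Neither pair of groups overlapped. Sdhb, at -0.26 ± 0.08 (limma adjusted p = 0.15), was likewise lower on every 4OHT array. In all, 27 of 83 members had groups that did not overlap. The share of all features without overlap was not counted here either, so no effect of 4OHT is read from this number. By complex the medians were -0.02 in I, -0.14 in II, -0.13 in III, -0.07 in IV and -0.06 in V. Without vehicle replicate 1 they were -0.20 in II and -0.03 in IV, and without vehicle replicate 2 they were -0.07 in II and -0.15 in IV. Under quantile normalization they were 0.03 in I, 0.01 in IV and 0.05 in V.

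Outside the structural members, calls in 4OHT against vehicle were found in the accessory lists. Over all features 3.5% were called, and the lists were not tested against that share. Coa7, a factor of complex IV assembly, measured 1.09, 0.60 and 0.62 in 4OHT, against 1.91 and 1.63 in vehicle (-1.0 ± 0.20, limma adjusted p = 0.047), with 2.22, 2.52 and 2.14 in untreated. Coa6, a further complex IV factor, measured 1.38, 1.40 and 1.44 in 4OHT, against 1.85 and 1.83 in vehicle (-0.43 ± 0.08, limma adjusted p = 0.046). These 2 were the calls among 50 assembly factors, and both missed the threshold in several settings, with adjusted p of 0.026 to 0.21 for Coa7 and 0.03 to 0.19 for Coa6.
Among regulators, Gabpb1 measured 1.04, 0.77 and 0.80 in 4OHT, against 1.88 and 1.73 in vehicle (-0.94 ± 0.13, limma adjusted p = 0.017), and -0.37 when its probes were averaged (adjusted p = 0.068). Esrrb, an orphan receptor of the stem cell network, differed by -0.63 ± 0.10 (limma adjusted p = 0.028). Cluh, an RNA-binding protein for mRNAs of mitochondrial proteins, differed by -0.53 ± 0.11 (limma adjusted p = 0.049). Nrf1, at -0.58 ± 0.15, was not called (limma adjusted p = 0.092), although all 4OHT arrays lay below both vehicle arrays.
Dlat measured 0.98, 0.97 and 0.95 in 4OHT, against 1.42 and 1.55 in vehicle (-0.52 ± 0.09, limma adjusted p = 0.029). These were 3 calls among 20 regulators and 1 among 16 citric acid cycle genes, all lower, beside 2.58% of all features called lower. Each of the 6 calls was lost when either vehicle array was left out, with adjusted p of 0.054 or more. They were also lost with replicate number as a block (adjusted p of 0.085 for Gabpb1, 0.13 for Esrrb and Dlat, 0.14 for Coa7, 0.15 for Coa6 and 0.16 for Cluh), with no filter (0.076 to 0.19) and with the untreated arrays out of the fit (0.075 to 0.14). Those of Coa6 and Cluh were lost without any of the 8 arrays, Coa7 without any but 4OHT replicate 1, and Dlat without any but untreated replicate 2. Esrrb was lost without any but untreated replicates 1 and 2, and Gabpb1 also without 4OHT replicate 2 or 3. Coq3, of ubiquinone synthesis, was not called (limma adjusted p = 0.075). It measured -3.38, -3.32 and -3.54 in 4OHT, against -4.26 and -5.35 in vehicle and -5.05, -4.70 and -4.39 in untreated. It was above background on no vehicle array, though on every untreated array at similar levels, so its signal was near the background. Its fold in 4OHT over vehicle, at least 1.97, is a bound.

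**Figure D5:**
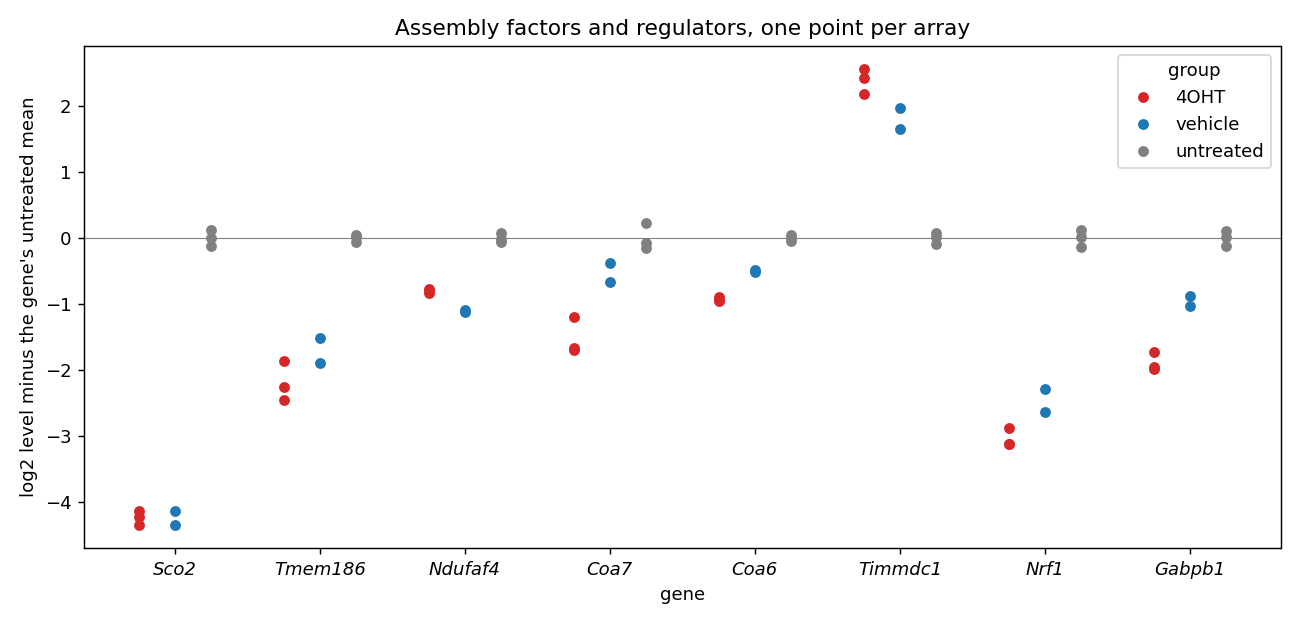
Log2 level minus the gene's untreated mean (y axis) for 6 assembly factors and 2 regulators (x axis), with 1 point per array in the order 4OHT, vehicle, untreated. Sco2 lies near -4 in both actinomycin D groups, Timmdc1 lies above 0 in both, and Coa7, Coa6 and Gabpb1 lie lowest in 4OHT.

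4OHT against untreated shares its untreated arrays with the first comparison, so the 2 are given side by side and are not independent. Of 83 structural members 80 were higher and 0 lower, against 59.8% of all features called, 41% higher and 18.7% lower. The members' median was 0.98 and that of all features 0.31. By complex the medians were 0.95 in I, 0.90 in II, 0.93 in III, 1.01 in IV and 1.04 in V. Relative to the spike-ins the members' median was -0.61 with 73 called lower, and under quantile normalization it was 0.25 with 41 called higher. Ndufs7, Cox7b2 (0.75 ± 0.30, limma adjusted p = 0.062) and Cox8c (0.94 ± 0.37, limma adjusted p = 0.065) were the members without a call. Ndufs7 was called (0.37, adjusted p = 0.015) when vehicle replicate 1 or 2 was left out or when the vehicle arrays were not in the fit.

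Assembly factors again spread widely, with 31 of 50 higher and 13 lower and a median of 0.37. Sco2 stood at -2.45, -2.23 and -2.32 in 4OHT, a difference of -4.25 ± 0.11 from untreated, and Timmdc1 at 4.48, 4.87 and 4.73, a difference of 2.39 ± 0.14. The regulators had 5 higher and 11 lower of 20, with Gabpb1 at -1.89 ± 0.11 and Nrf1 at -3.04 ± 0.13 (limma adjusted p of 3e-05 and 8.5e-06).

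Several probes were kept for 24 member symbols, and the probe with the highest mean is shown. In vehicle against untreated all 24 had probes of 1 sign, with a median range of 0.14. In 4OHT against vehicle 16 of the 24 did, so the sign of a small difference there can depend on the probe. Ndufv3, an accessory subunit with known long and short forms, was the widest: the probe shown gave 0.91 and the other 0.32. In 4OHT against vehicle its probes gave -0.04 and -0.58. In 4OHT against untreated they gave 0.87 and -0.26, so the sign depends on the probe. Which form each probe detects was not tested. The gene table lists pseudogenes under the names of 10 members, and a probe may detect their transcripts as well.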

How the data were processed

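Per the labels' protocols, 100 ng of total RNA was labelled per array. Per the file headers, Agilent Feature Extraction 11.0.1.1 wrote the deposited intensity, which is linear and background-subtracted. The deposited value table holds the same intensities, within 1% for 100% of its values. The channel is green, while the labels name Cy5. Flags of each spot, which hold 0 or 1, were used as deposited. Log2 intensity minus each array's 75th percentile was computed here from the deposited values. Spots of a probe were averaged, and control and outlier-marked spots were left out. Kept were 33013 probes that some group showed well above background on all of its arrays. Accessions were named through a RefSeq gene table (GRCm38.p6, names only), and the probe with the highest mean stands for its gene. The 28493 features were fitted in limma 3.58.1 (R 4.3.3) with lmFit and eBayes, all 3 groups together (5 residual degrees of freedom). The two-sided p-values were Benjamini-Hochberg adjusted over all features. Errors are standard errors of that fit. The number of arrays limits the precision. The pipeline was tested on simulated data. Where a group had no array above background, a fold is a bound against the lowest signal well above background, per array.

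The members and lists were chosen with earlier results of these data known, and the grouping of subunits by biochemical role was added later. Named by rule are, per complex, the 2 highest and 2 lowest members in each of the first 2 comparisons (all of complex II), the isoform pairs, every called member in 4OHT against vehicle, and the highest and lowest gene of every other list. For 4OHT against untreated the rule was reduced to the highest and lowest. Other genes were named after their values were seen and some genes of the rule are not reported here. Alternatives were quantile normalization, normexp (offset 50), spike-in scaling over 8 control probes, no filter, a filter on all 8 arrays, the mean of probes, leaving out each array, a block for replicate number, a 2-fold minimum, and a fit of the compared groups alone.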

Additional observations from a re-analysis of the deposited data

How the results depend on the processing

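Replicate numbers were not taken as pairs: same-numbered arrays correlated in their deviations at -0.191 to 0.108 where untreated was involved, and at 0.364 and 0.222 between vehicle and 4OHT, where 2 pairs are too few to settle it and the 2 vehicle deviations mirror each other. The replicate block moved the assembly factors' median to 0.38 in vehicle against untreated and left 0 of them called lower in 4OHT against vehicle, where it also ended the calls of Gabpb1, Esrrb, Cluh and Dlat. Slide as a block was not run, since 4OHT arrays had a slide to themselves, and vehicle and untreated arrays lay in different rows of the other slide, so position and treatment cannot be told apart. Vehicle against untreated: normexp put the members' median at 0.76 and the assembly factors' at 0.22. Under quantile normalization 32 members were higher and 1 lower (median 0.22), and 15 assembly factors higher and 13 lower (median 0.06). Spike-in scaling gave 0 members higher and 6 lower (median -0.28), and 1 assembly factor higher and 35 lower (median -0.95). A 2-fold minimum left 41 members higher, and 3 assembly factors higher and 4 lower. Leaving out an array gave 78 to 81 members higher and 0 to 1 lower, the 1 being Ndufs7 without vehicle replicate 1, with medians of 0.97 to 1.06. It gave 20 to 25 assembly factors higher and 9 to 10 lower, with medians of 0.30 to 0.41. 4OHT against vehicle: normexp called 1 member lower and 1 assembly factor higher. The members' median was 0.02 under quantile normalization and -0.36 relative to spike-ins, where the assembly factors' was -0.30. Assembly factors called lower numbered 1 under quantile normalization, spike-in scaling and the mean of probes, 0 with no filter, with only the groups compared and with a 2-fold minimum, and 0 to 1 when an array was left out (medians of -0.01 to 0.06; the members' -0.06 to -0.04). 4OHT against untreated: normexp gave medians of 0.76 (members) and 0.24 (assembly factors). Quantile normalization gave 41 members higher and 1 lower (median 0.25) and 17 assembly factors higher and 14 lower (median 0.14). Spike-in scaling gave 0 members higher and 73 lower (median -0.61), and 1 assembly factor higher and 48 lower (median -1.22). A 2-fold minimum left 33 members higher, and 3 assembly factors higher and 3 lower. Leaving out an array gave 78 to 82 members higher (medians of 0.92 to 1.01), 23 to 28 assembly factors higher and 11 to 13 lower (medians of 0.32 to 0.41). Relative to spike-ins, the medians of complexes I to V were -0.32, -0.30, -0.21, -0.23 and -0.17 in vehicle against untreated, and -0.64, -0.68, -0.66, -0.58 and -0.54 in 4OHT against untreated; complex IV was at 0.01 in 4OHT against vehicle under quantile normalization. Spike-in scaling reversed these genes in vehicle against untreated, by its constant shift: Atp5c1 -0.34, Atp5e -0.07, Atp5g1 -0.35, Atp5g2 -0.11, Atp5g3 -0.15, Atp5j2 -0.04, Cox17 -0.25, Cox4i1 -0.41, Cox4i2 -0.65, Cox6a1 -0.14, Cox6b1 -0.22, Cox6b2 -0.47, Cox7a1 -0.22, Cox7a2 -0.24, Cox7a2l -0.34, Cox7b -0.07, Cox7b2 -0.25, Cox8a -0.38, Cyc1 -0.54, Cycs -0.35, Gabpa -0.87, Gabpb2 -0.70, Lrpprc -0.44, Mdh2 -0.20, Ndufa4 -0.09, Ndufb11 -0.01, Ndufs1 -0.59, Ndufs3 -0.58, Ndufs8 -0.34, Ndufv1 -0.48, Ndufv2 -0.40, Ndufv3 -0.37, Sdha -0.35, Sdhb -0.02, Sdhc -0.29, Sdhd -0.31, Slirp -0.30, Uqcrc1 -0.14, Uqcrc2 -0.66, Uqcrfs1 -0.55, Uqcrh -0.07 and Uqcrq -0.11. In 4OHT against untreated it reversed Atp5g1 -0.77, Atp5l -0.34, Coq3 -0.28, Cox4i2 -1.08, Ndufa4l2 -0.27, Sdhb -0.59, Sdhd -0.82, Slirp -0.52, Uqcrb -0.41 and Uqcrc2 -0.97. Quantile normalization reversed Atp5c1 -0.00, Atp5g1 -0.15, Cox4i1 -0.18, Cox8a -0.17, Cyc1 -0.17, Mdh2 -0.00, Ndufv1 -0.10 and Uqcrc2 -0.13 in vehicle against untreated, and Atp5g1 -0.14 and Uqcrc2 -0.09 in 4OHT against untreated; normexp reversed Ppargc1b (0.17) in vehicle against untreated. Quantile normalization also ended calls without a change of sign in vehicle against untreated. Among these were Ndufs1 0.02, Ndufs3 0.02, Ndufv2 0.10, Ndufv3 0.01, Sdha 0.25 and Sdhd 0.23. Others were Uqcrfs1 0.07, Uqcrh 0.21, Uqcrq 0.20, Cox6a1 0.02, Atp5g2 0.08, Atp5g3 0.07 and Atp5j2 0.20. Except for the construction of these scalings, causes were not tested. Signals below background limit Cox6a2, Cox8b and Lyrm7, which have no difference.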
